A study of Mus musculus with 12 samples.

Results

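The genes examined here are the ligands of the tumour necrosis factor (TNF) superfamily and their receptors, in the lungs of mice. They were taken from the deposited gene table by name: protein-coding genes whose symbol begins with Tnfsf or Tnfrsf followed by a digit, together with Tnf, Lta, Ltb, Ltbr, Fas, Fasl, Cd40, Cd40lg, Cd27, Ngfr and Eda2r. This gave 42 genes of the 54532 in the table, 16 ligands and 26 receptors. RNA of whole lung was sequenced in 12 samples, 6 labelled control and 6 labelled acute lung injury (ALI), the injury being produced, by the series design, through seawater drowning. Strain, genotype, age and sex of the mice, the dose of the exposure, the time of collection and any pooling of animals are not given in the sources used here. Whether each sample is a different mouse is likewise not stated, and the p-values therefore cover sample-to-sample spread that could be technical.

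TNF superfamily ligands are mostly membrane proteins that act as trimers, on the cell surface or after shedding by a protease, and they bind receptors that cluster on the responding cell. Receptors with a death domain can start apoptosis or necroptosis, others recruit TRAF adaptors that activate NF-kB, and a few are decoys that bind ligand without signalling. In lung, Tnf from macrophages is an early mediator of inflammation, and other members govern lymphocyte costimulation, B cell survival and the formation of lymphoid tissue.

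Each sample held between 15707937 and 19706494 counts. Levels are in CPM, the count of a gene scaled to the total count of its sample and adjusted by TMM, and changes are log2 fold changes of ALI against control from edgeR's quasi-likelihood test. A gene was called at a Benjamini-Hochberg adjusted p under 0.05 over all 16185 genes tested. Epithelial and endothelial markers of lung were abundant in both groups, with a summed level of 6 alveolar type 2 genes between 17400 and 26260 CPM. Control 5 stood apart: its 6 adipose genes summed to 10010 CPM against a control median of 5.29 CPM, and 9.85% of its counts were mitochondrial. ALI 2 held 381 CPM of the same adipose genes. Calls, fold changes, ratios and summed member levels were also computed without both samples; marker sums were not.

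Of the 42 members, 38 had enough counts to be tested, and 31 of these reached the count minimum in all 6 controls. Tnfrsf9, Tnfrsf8, Tnf and Lta, all called higher in ALI, reached it in only 3 to 5 controls but in all 6 ALI samples. They thus entered the test through the group where they are high. They are included in the numbers of members called higher and at least 2-fold higher below. Among ligands 6 of 13 tested were higher in ALI and 2 lower, and among receptors 8 of 25 were higher and 3 lower. Over all genes 18.9% were called higher and 17.7% lower, 36.6% in all. The median log2 change was 0.40 for tested ligands and 0.14 for tested receptors, beside -0.06 over all genes. Called changes of at least 2-fold numbered 10 upward and 0 downward, where 8% of all genes were called and at least 2-fold higher and 3.7% at least 2-fold lower. The groups did not overlap in 10 tested members with ALI above and in 2 with ALI below, beside 13.1% and 8.19% of all genes.

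**Figure D1:**
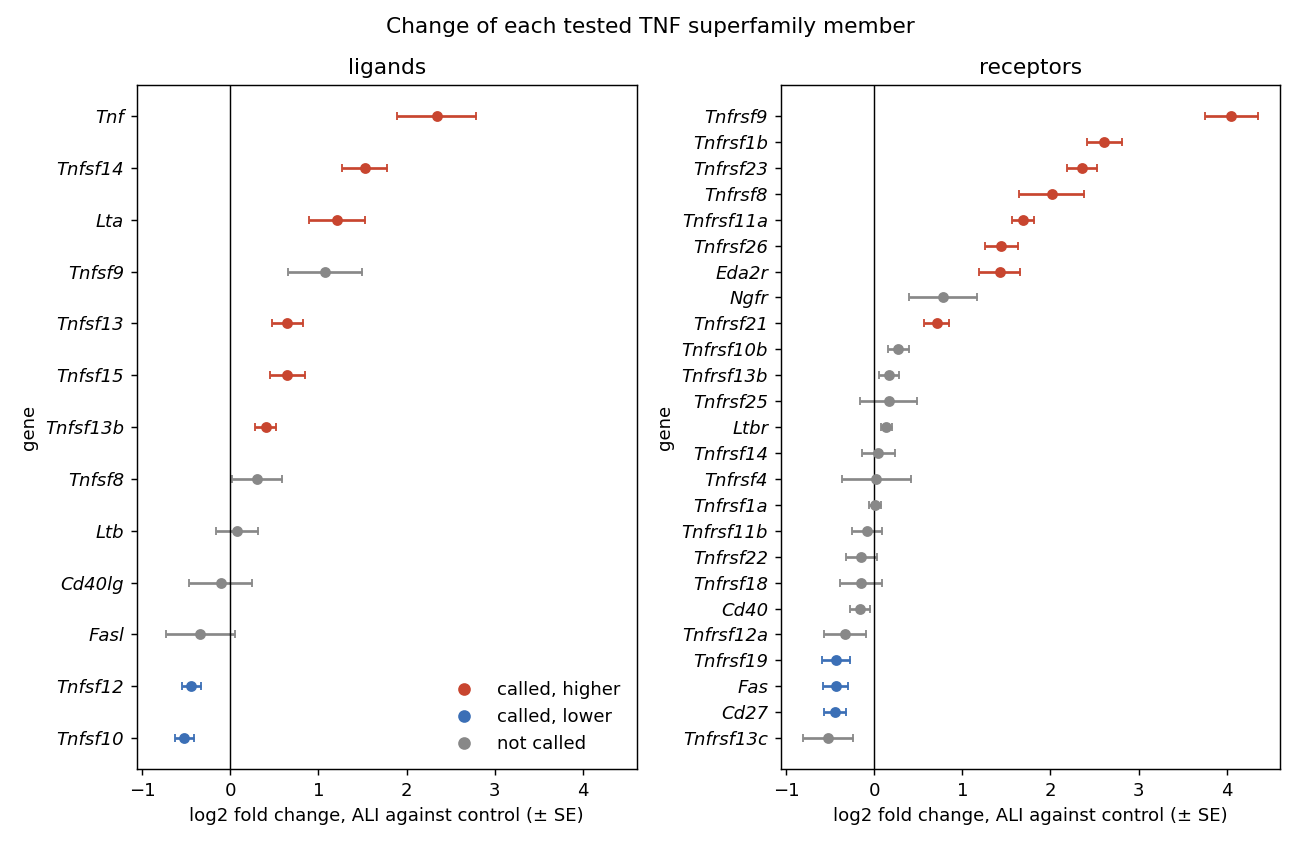
Log2 fold change of ALI against control, with its standard error, for the 13 ligands and 25 receptors tested, with 6 samples a group. Red points are called higher, blue points called lower and grey points not called; Tnfrsf9 stands furthest to the right at 4.05, and none of the falls reaches -1.

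Promoter windows of members were read from RefSeq on GRCm38.p6, where 33 of the 42 members had an entry. A window runs from 250 bases before the start of a transcript to 50 after it. Each was searched on both strands for a form of the NF-kB motif (GGG, any 3 bases, then TTCC) and for TGANTCA, the AP-1 motif. The first was present in 5.56% of all 32851 windows and the second in 7.81%. These shares are per window. A member was counted if any of its windows matched, and some, such as Tnfrsf9 and Tnfsf13b, had more than 1. Among 13 members called higher that had an entry, 2 (Tnfrsf9 and Eda2r) held the NF-kB letters and 5 (Tnfsf13, Tnfsf13b, Tnfsf14, Tnfrsf8 and Tnfrsf9) the AP-1 letters. Among 13 tested but not called these numbers were 2 and 0, and among 4 called lower they were 0 and 1. The 250 bases before the start are shown for the receptor with the largest rise, Tnfrsf9, at the one of its annotated starts that held both motifs without overlap (its other window held neither), and for a further ligand and receptor that rose and held the AP-1 letters. These were picked after the matches were known. Capitals mark the motif letters. A match is a description of the sequence and not evidence of binding.
Tnfrsf9 (chr4:150927749-150927998, plus strand): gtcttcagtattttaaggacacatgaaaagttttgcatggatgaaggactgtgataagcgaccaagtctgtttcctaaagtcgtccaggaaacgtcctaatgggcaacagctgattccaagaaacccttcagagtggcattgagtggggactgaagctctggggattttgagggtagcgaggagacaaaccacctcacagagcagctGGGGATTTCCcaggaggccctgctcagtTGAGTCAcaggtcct
Tnfrsf8 (chr4:145315165-145315414, minus strand): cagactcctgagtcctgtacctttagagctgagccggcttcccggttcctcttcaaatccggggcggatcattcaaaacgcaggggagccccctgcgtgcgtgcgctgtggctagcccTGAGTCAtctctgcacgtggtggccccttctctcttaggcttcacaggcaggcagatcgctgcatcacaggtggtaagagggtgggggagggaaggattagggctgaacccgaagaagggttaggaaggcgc
Tnfsf14 (chr17:57194182-57194431, minus strand): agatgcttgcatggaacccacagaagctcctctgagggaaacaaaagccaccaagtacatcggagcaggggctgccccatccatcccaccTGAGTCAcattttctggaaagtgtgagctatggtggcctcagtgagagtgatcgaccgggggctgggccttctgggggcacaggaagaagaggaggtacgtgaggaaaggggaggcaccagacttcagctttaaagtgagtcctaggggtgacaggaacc

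The TNF and lymphotoxin ligands rose, apart from Ltb. Tnf (ENSMUSG00000024401, chromosome 17, 35199381 to 35202007 on GRCm38, minus strand), which signals through both TNF receptors, had a lowest, median and highest value of 0.469, 1.07 and 3.06 CPM in controls and 2.31, 6.32 and 12.3 CPM in ALI. It rose by 2.34 ± 0.45 log2 units (SE, n = 6 a group, edgeR adjusted p = 0.000964), 5.07-fold. The groups overlapped in 1 ALI sample, since control 5 was the highest control, and without control 5 the change was 2.75. Lta (ENSMUSG00000024402), the soluble lymphotoxin, went from 0.273, 0.776 and 0.895 CPM to 1.01, 1.59 and 2.03 CPM, without overlap, and rose by 1.21 ± 0.31 (edgeR adjusted p = 0.00741).

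Tnfsf14 (ENSMUSG00000005824, chromosome 17, 57189492 to 57194177, minus strand), or LIGHT, binds the lymphotoxin beta receptor and the product of Tnfrsf14. Its lowest, median and highest values were 1.04, 1.21 and 2.39 CPM in controls and 2.56, 4.41 and 4.98 CPM in ALI, a rise of 1.52 ± 0.25 log2 units (edgeR adjusted p = 0.000254). All 6 ALI values lay above the controls, and ALI 3 was the lowest of them.

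Ltb, which anchors lymphotoxin to the membrane, lies beside Tnf and Lta on chromosome 17 (35194439 to 35196320, plus strand). It was far more abundant than either, at 42.7 ± 16.3 CPM (SD, n = 6) in controls and 45.1 ± 11.5 CPM in ALI, with largely overlapping ranges and a log2 change of 0.08 ± 0.24 (edgeR adjusted p = 0.829). The difference between neighbours was tested on log2 ratios per sample, a comparison chosen after the values were seen, with p adjusted over the 11 ratios computed. The ratio of Tnf to Ltb rose by 2.14 (higher in 6 of 6 ALI samples than in any control, two-sided exact permutation p = 0.0021645, the smallest that 6 against 6 allows, adjusted p = 0.00397). For Lta to Ltb the rise was 1.01, with overlap (exact permutation p = 0.0108, adjusted p = 0.0149).

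The receptors of these ligands differed among themselves. Tnfrsf1b (ENSMUSG00000028599, chromosome 4, 145213463 to 145246870, minus strand) encodes TNFR2, which lacks a death domain and is carried mainly by leukocytes and endothelium. Its lowest, median and highest values were 44.9, 62.7 and 79.6 CPM in controls and 238, 367 and 567 CPM in ALI, with a wide gap between the groups. It rose by 2.61 ± 0.20 log2 units, 6.10-fold (edgeR adjusted p = 2.63e-07).

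Tnfrsf1a (ENSMUSG00000030341, chromosome 6, 125349362 to 125362484, plus strand) encodes TNFR1, the death domain receptor that most cell types carry. It held 186, 199 and 226 CPM in controls and 194, 196 and 215 CPM in ALI, the ALI range lying inside that of the controls, with a log2 change of 0.00 ± 0.07 (edgeR adjusted p = 0.977). The log2 ratio of Tnfrsf1b to Tnfrsf1a was -1.68 ± 0.30 (SD, n = 6) in controls and 0.89 ± 0.42 in ALI, a difference of 2.57 with no overlap (exact permutation p = 0.0021645, adjusted p = 0.00397). This ratio was chosen after the values were seen. Per kilobase of deposited gene length, Tnfrsf1a exceeded Tnfrsf1b in controls, at 77.1 against 16.5 CPM per kilobase. In the ALI means the order was turned, at 77.3 against 101 CPM per kilobase. For 41 of 42 members this length was the union of all annotated exons and not that of a single transcript. Tnfrsf1b was the higher of the pair per kilobase in 0 of 6 controls and 5 of 6 ALI samples, ALI 3 being the exception at 62.2 against 75.0 CPM per kilobase.

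Ltbr and Tnfrsf14, the other receptors of this branch, were not called. Ltbr, the lymphotoxin beta receptor, held 105 ± 5.32 CPM (SD, n = 6) in controls and 116 ± 4.30 CPM in ALI, a log2 change of 0.14 ± 0.06 with 4 ALI values above every control (edgeR adjusted p = 0.0896). Tnfrsf14, which LIGHT engages on lymphocytes, stood at 13.7 ± 1.68 and 14.1 ± 4.58 CPM (edgeR adjusted p = 0.881). Relative to Tnfrsf14, Tnfsf14 rose by 1.5 log2 units, with slightly overlapping groups (exact permutation p = 0.00433, adjusted p = 0.00680). That ratio too was chosen after the values were seen. Tnf relative to Tnfrsf1b had a log2 ratio that was -5.65 ± 0.99 in controls and -5.97 ± 0.53 in ALI, a difference of -0.32 within the spread (exact permutation p = 0.563).

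**Figure D2:**
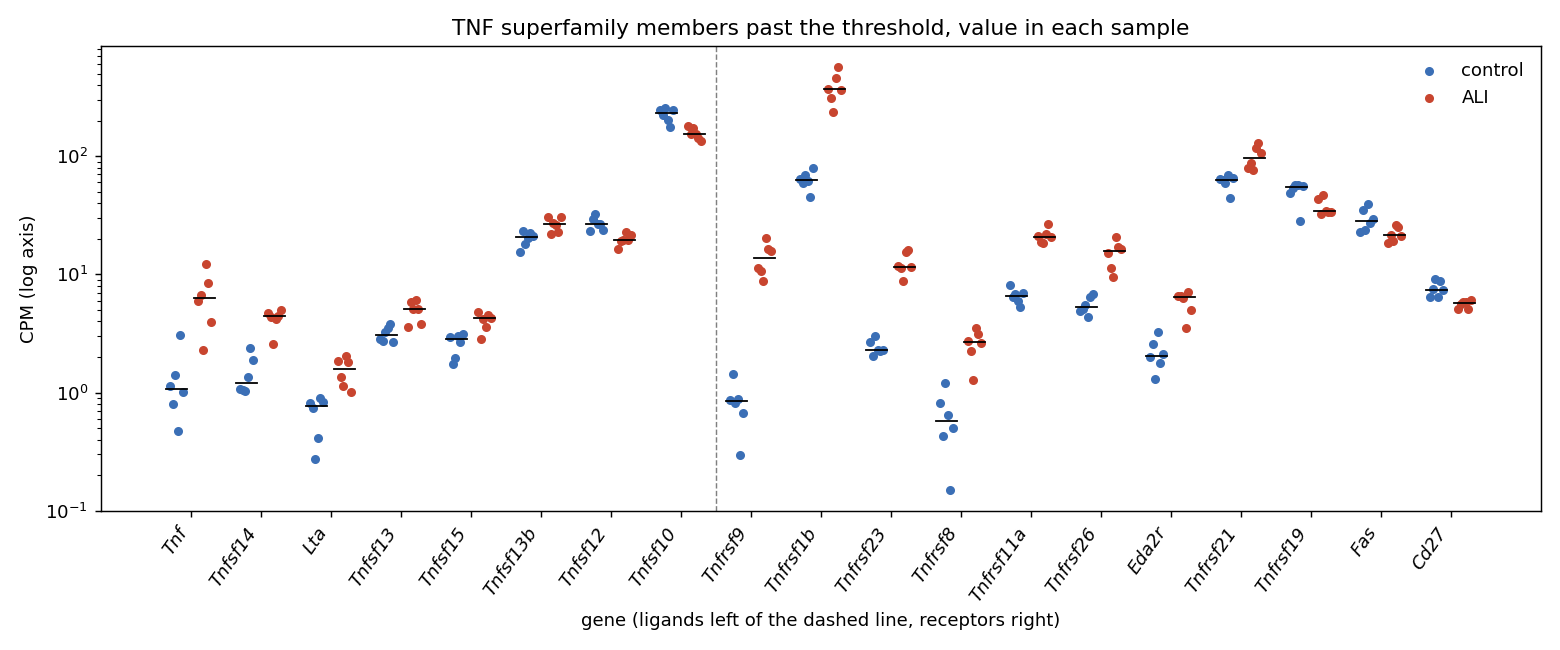
CPM of the 19 called members in each of the 12 samples on a log axis, with ligands left and receptors right of the dashed line; points are samples and black bars group medians. Tnfrsf9 and Tnfrsf1b show the widest gaps between control (blue) and ALI (red), while Tnfsf10, Tnfsf12, Tnfrsf19, Fas and Cd27 are lower in ALI.

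Tnfrsf9, a costimulatory receptor of T cells, had the largest log2 change of the 38 tested members. Tnfrsf9 (ENSMUSG00000028965, chromosome 4, 150914562 to 150946102, plus strand), known as 4-1BB and induced on activated lymphocytes and some myeloid cells, held 0.298, 0.841 and 1.42 CPM in controls and 8.76, 13.6 and 20.5 CPM in ALI. It rose by 4.05 ± 0.30 log2 units, 16.6-fold (edgeR adjusted p = 1.97e-07), with every ALI value far above every control. Control counts were 4 to 23 a sample, so the size of this rise rests on a low control level. Its ligand gene Tnfsf9 went from 0.771 ± 0.417 to 1.65 ± 0.742 CPM and was not called (log2 change 1.07 ± 0.42, edgeR adjusted p = 0.0598). It lay near the threshold and was called higher by DESeq2 (adjusted p = 0.0377), by limma-voom (adjusted p = 0.0236), and by edgeR without control 3 or ALI 3 (adjusted p = 0.0287 and 0.0133). Receptor over ligand, the log2 ratio rose by 2.97 (exact permutation p = 0.0021645, adjusted p = 0.00397), a comparison chosen after the values were seen.

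Tnfrsf8 (ENSMUSG00000028602), which encodes CD30 and lies next to Tnfrsf1b on chromosome 4 (145267137 to 145315164, minus strand), held 0.149, 0.573 and 1.2 CPM in controls and 1.28, 2.67 and 3.53 CPM in ALI. It rose by 2.01 ± 0.37 (edgeR adjusted p = 0.000610) without overlap, although the lowest ALI value was close to the highest control. Its ligand gene Tnfsf8 was not called, at 2.08 ± 0.722 and 2.58 ± 0.867 CPM (edgeR adjusted p = 0.427).

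Cd27, a receptor of naive and memory T cells, fell. Its values were 6.45, 7.44 and 9.06 CPM in controls and 5.08, 5.72 and 6.10 CPM in ALI, and it fell by 0.44 ± 0.13 log2 units (edgeR adjusted p = 0.0139) with all ALI values below all controls. The call was lost when genes with low counts were kept (edgeR adjusted p = 0.0502). Cd70, the gene of its ligand, is outside the rule and had 0 counts in all 12 samples. Tnfrsf4 (OX40) and Tnfrsf18 (GITR) were not called, with log2 changes of 0.02 ± 0.39 and -0.15 ± 0.24 (edgeR adjusted p = 0.970 and 0.656). Neither direction was stable: without control 5, which had the highest Tnfrsf18 at 4.25 CPM, the change of Tnfrsf18 was 0.06, and that of Tnfrsf4 ran from -0.12 to 0.23 with 1 sample left out. Of the exon bases of Tnfrsf18, 27.2% overlap an antisense gene, so its counts are uncertain.

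The genes of their ligands, Tnfsf4 and Tnfsf18, had too few counts for the test. Tnfsf4 had 6 counts over the controls and 34 over the ALI samples, and Tnfsf18 had 8 and 38. In both, every ALI value in CPM lay above every control. For Tnfsf4 the raw counts tied, the highest control count and the lowest ALI count each being 2. When genes with low counts were kept in the edgeR test, both were called, with log2 changes of 2.31 (adjusted p = 0.0397) and 2.07 (adjusted p = 0.0357), values that rest on few counts.

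Cd40lg and Cd40, the pair through which helper T cells act on B cells and antigen-presenting cells, were not called. Cd40lg stood at 0.810 ± 0.434 and 0.753 ± 0.181 CPM (log2 change -0.11 ± 0.36, edgeR adjusted p = 0.841), and the sign turned without control 2 or control 6. Cd40 held 15.7, 21.5 and 23.7 CPM in controls and 16.7, 17.6 and 19.2 CPM in ALI, the ALI range lying inside that of the controls (log2 change -0.16 ± 0.11, edgeR adjusted p = 0.288).

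Markers of lymphocytes and myeloid cells were read beside these genes. None of 12 T cell markers was higher in ALI and 3 were lower. The 12 summed to 135 to 168 CPM in controls and 99.7 to 141 CPM in ALI. The 3 lower were Tcf7, Lef1 and Cd8b1, of which Tcf7 alone went from a mean of 56.9 to 42.4 CPM. Cd3d, Cd3e, Cd3g and Trac were not called, with log2 changes of -0.25, 0.09, 0.18 and -0.18. Of 4 regulatory T cell markers 2 were higher, the sum going from 7.75 to 11.8 CPM up to 12.7 to 20.6 CPM. The 2 higher were Ikzf2 and Il2ra (edgeR adjusted p = 0.0219 and 0.0244). Foxp3 and Ctla4 were not called, with log2 changes of 1.07 and 1.23 (edgeR adjusted p = 0.114 and 0.0889). Ikzf2 was the largest part of the sum, with medians of 6.11 CPM in controls and 9.42 CPM in ALI. All 10 macrophage markers were higher (268 to 394 CPM in controls, 1307 to 2117 CPM in ALI). Higher too were 8 of 9 tested neutrophil markers (88.3 to 143 and 165 to 399 CPM) and 3 of 6 monocyte markers (114 to 180 and 250 to 371 CPM). Of 7 dendritic cell markers 2 were higher and 3 lower (100.6 to 142.5 and 111.7 to 124.1 CPM). Of 4 tested mast cell markers 0 were higher and 2 lower (196.6 to 328.5 and 138.8 to 187 CPM). Kit made up most of the mast cell sum, with means of 281 and 153 CPM. All 8 capillary endothelial markers were lower (4045 to 5926 and 2316 to 3211 CPM), as were 5 of 6 alveolar type 1 markers, and all 5 markers of dividing cells were higher (26.8 to 65.7 and 351 to 435 CPM). Their part in the changes of Tnf, Tnfrsf1b, Tnfrsf9 and the other members was not tested. In whole lung, a change in the number of cells of a type cannot be told apart from a change in RNA per cell.

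The death ligands and their receptors did not share a direction. Tnfsf10 (ENSMUSG00000039304, chromosome 3, 27317028 to 27342427, plus strand), which encodes TRAIL, held 176, 233 and 254 CPM in controls and 134, 155 and 180 CPM in ALI. It fell by 0.52 ± 0.11 log2 units (edgeR adjusted p = 0.00132), with 5 of 6 ALI values below every control. Per kilobase it was the most abundant ligand in controls, at 42.6 ± 5.87 CPM per kilobase (SD, n = 6), and in ALI it stood level with Ltb, at 29.7 ± 3.37 beside 29.7 ± 7.59 CPM per kilobase.

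Tnfrsf10b, the TRAIL receptor of the mouse that carries a death domain, was not called, at 7.34 ± 0.990 and 8.87 ± 0.612 CPM (log2 change 0.27 ± 0.12, edgeR adjusted p = 0.0892). Without control 5 it was called (0.31, edgeR adjusted p = 0.0450). Next to each other on chromosome 7 lie Tnfrsf22, Tnfrsf23 and Tnfrsf26, of which the first and the second encode mouse TRAIL receptors without a death domain. Tnfrsf23 (ENSMUSG00000037613, 143665809 to 143685872, minus strand) held 2.04, 2.28 and 3.0 CPM in controls and 8.76, 11.6 and 16.1 CPM in ALI. It rose by 2.35 ± 0.17 log2 units, 5.11-fold (edgeR adjusted p = 1.84e-07), without overlap.

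Tnfrsf26 (ENSMUSG00000045362, 143607659 to 143628722, minus strand) held 4.40, 5.32 and 6.85 CPM in controls and 9.55, 15.9 and 20.8 CPM in ALI, a rise of 1.44 ± 0.19 (edgeR adjusted p = 3.48e-05) without overlap. Tnfrsf22 (143634806 to 143649661, minus strand), which lies between them, held 5.81, 9.33 and 10.7 CPM in controls and 5.54, 8.34 and 10.2 CPM in ALI (log2 change -0.15 ± 0.18, edgeR adjusted p = 0.549), with overlapping groups. The log2 ratio to Tnfrsf22 rose by 2.44 for Tnfrsf23 and by 1.54 for Tnfrsf26, each with exact permutation p = 0.0021645 (adjusted p = 0.00397). Both ratios were chosen after the values were seen, so their p-values add little to the tests of the single genes. Tnfrsf22, Tnfrsf23 and Tnfrsf26 are close paralogs, and reads that fit more than one of them cannot be assigned with certainty.

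Fas (ENSMUSG00000024778), the classical death receptor, held 22.7, 28.4 and 39.4 CPM in controls and 18.6, 21.3 and 26.0 CPM in ALI. It fell by 0.44 ± 0.14 (edgeR adjusted p = 0.0262), with 4 of 6 ALI values below every control. The call was lost without control 2, control 4, ALI 1 or ALI 3 (edgeR adjusted p = 0.0551 to 0.0643). Fasl, its ligand from cytotoxic lymphocytes, was not called, at 1.46 ± 0.684 and 1.15 ± 0.591 CPM (log2 change -0.34 ± 0.39, edgeR adjusted p = 0.532). The summed level of 7 NK cell markers ran from 66.2 to 88.6 CPM in controls and from 41.2 to 92.3 CPM in ALI.

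Tnfrsf21 (ENSMUSG00000023915), or death receptor 6, held 44.4, 63.2 and 68.7 CPM in controls and 76.9, 97.0 and 128 CPM in ALI and rose by 0.71 ± 0.14 (edgeR adjusted p = 0.00121) without overlap. Tnfsf15, the ligand TL1A that endothelial and myeloid cells make, held 1.73, 2.83 and 3.12 CPM in controls and 2.82, 4.25 and 4.84 CPM in ALI and rose by 0.65 ± 0.20 (edgeR adjusted p = 0.0191), with 5 of 6 ALI values above every control. Its receptor gene Tnfrsf25 (death receptor 3) was not called, at 2.90 ± 2.01 and 3.22 ± 0.522 CPM (edgeR adjusted p = 0.731), with control 5 far above the other controls at 6.93 CPM. Without control 5 it was called higher, with a log2 change of 0.61 (edgeR adjusted p = 0.0204).

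**Figure D3:**
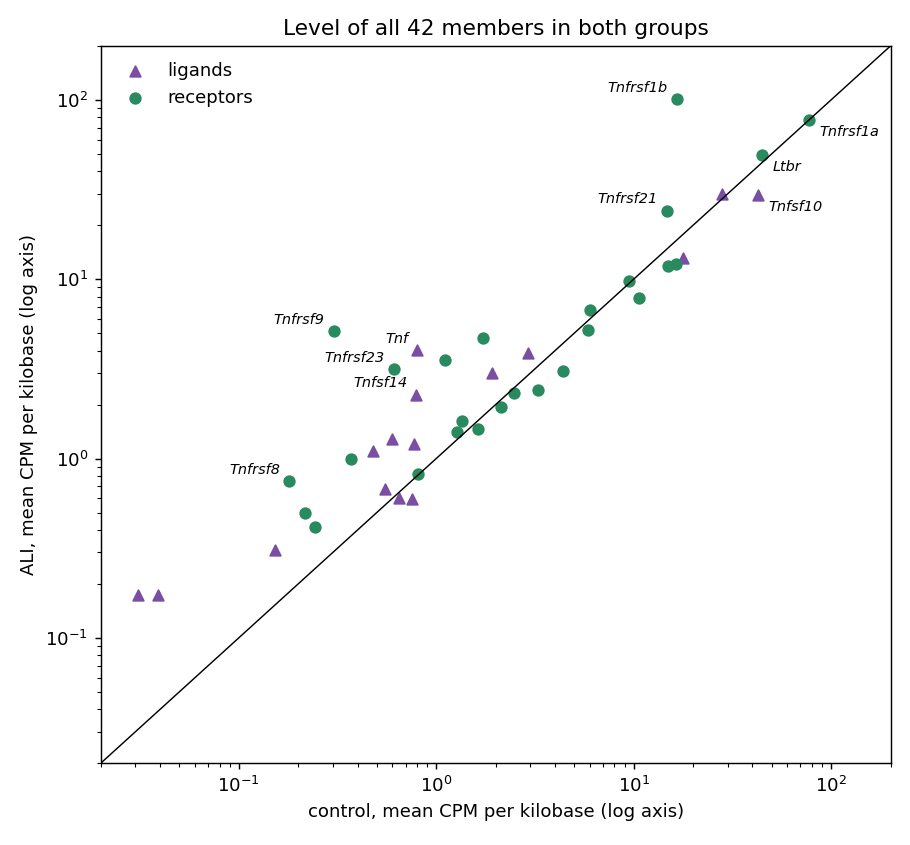
Mean level of each of the 42 members per kilobase of deposited gene length in control (x axis) and ALI (y axis), both on log axes, with triangles for ligands, circles for receptors and a line of equal level. Tnfrsf1b rises from 16.5 to 101 CPM per kilobase and passes Tnfrsf1a in the means, and most abundant members lie close to the line.

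The receptors summed to 239 ± 9.37 CPM per kilobase (SD, n = 6) in controls and 340 ± 43.4 in ALI, and the ligands to 99.0 ± 11.9 and 91.9 ± 10.9. Tnfrsf1b held 6.92% ± 1.20 of the receptor sum in controls and 29.2% ± 5.14 in ALI. Without Tnfrsf1b the receptor sums were 222 ± 8.81 and 239 ± 14.5 CPM per kilobase, whose ranges overlap (206 to 234 and 219 to 259).

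In the B cell survival branch both ligand genes rose. Tnfsf13b (ENSMUSG00000031497), which encodes BAFF, held 15.6, 20.7 and 23.2 CPM in controls and 21.9, 26.8 and 30.8 CPM in ALI and rose by 0.40 ± 0.12 (edgeR adjusted p = 0.0167), with 4 of 6 ALI values above every control. Tnfsf13, which encodes APRIL, held 2.67, 3.07 and 3.80 CPM in controls and 3.57, 5.13 and 6.04 CPM in ALI and rose by 0.65 ± 0.18 (edgeR adjusted p = 0.00976), with 5 of 6 ALI values above every control. Of its exon bases 60.0% are shared with the antisense gene Tnfsf13os or the readthrough gene Tnfsfm13. Tnfsf13os also rose, by 0.72 (edgeR adjusted p = 0.00775), and Tnfsfm13 had a log2 change of 0.07 (edgeR adjusted p = 0.767), so the level of Tnfsf13 itself is uncertain.

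The receptors for these ligands were not called. Tnfrsf13c, the BAFF receptor of mature B cells, held 6.12, 9.75 and 10.6 CPM in controls and 3.20, 5.52 and 11.05 CPM in ALI. The ALI values were spread, 3 below every control and ALI 2 above every control (log2 change -0.52 ± 0.28, edgeR adjusted p = 0.165). Without ALI 2 it was called lower, with a log2 change of -0.76 (edgeR adjusted p = 0.0350). Tnfrsf13b (TACI) stood at 17.1 ± 2.38 and 19.2 ± 1.94 CPM (edgeR adjusted p = 0.263). Tnfrsf17, the receptor BCMA of plasma cells, had 18 and 43 counts over the groups and was not tested, and ALI 2 held 23 of the 43.

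The log2 ratio of Tnfsf13b to Tnfrsf13c went from 1.16 ± 0.43 (SD, n = 6) to 2.19 ± 0.75, a rise of 1.03 (exact permutation p = 0.0216, adjusted p = 0.0265). Of 10 B cell markers 6 were lower in ALI and 1 higher, their sum running from 214 to 366 CPM in controls and from 148 to 304 CPM in ALI. ALI 2 held the highest sum of the ALI group and 997 CPM of the 6 plasma cell markers, against a median of 627 CPM in its group. Jchain alone of these 6 was called, its ALI values running from 22.1 to 372 CPM. Xbp1 and Sdc1, not called, made up most of the sum, with means of 225 and 291 CPM in controls and 199 and 322 CPM in ALI. The part of B cells and plasma cells in the ratio was not tested.

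In the RANK branch, which governs osteoclasts, lymph node development and some macrophages, the receptor rose. Tnfrsf11a (ENSMUSG00000026321, chromosome 1, 105780718 to 105847981, plus strand), which encodes RANK, held 5.29, 6.60 and 8.16 CPM in controls and 18.6, 20.8 and 26.9 CPM in ALI. It rose by 1.69 ± 0.13 log2 units, 3.22-fold (edgeR adjusted p = 2.37e-07), and the groups did not overlap. Tnfrsf11b, the soluble decoy osteoprotegerin, was not called, at 6.96 ± 1.29 and 6.58 ± 1.42 CPM (log2 change -0.08 ± 0.17, edgeR adjusted p = 0.738). Tnfrsf11a over Tnfrsf11b, the log2 ratio rose from -0.06 ± 0.15 to 1.69 ± 0.38 (exact permutation p = 0.0021645, adjusted p = 0.00397), again a comparison chosen after the values were seen.

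Tnfsf11, which encodes their ligand RANKL, had 35 counts over the controls and 74 over the ALI samples. Its median was 0.274 and 0.615 CPM with overlapping groups, and it was not tested on its own in the main fit. Ligand over decoy, the log2 ratio of Tnfsf11 to Tnfrsf11b was -4.24 ± 1.07 in controls and -3.15 ± 0.72 in ALI, a difference of 1.09 that did not pass (exact permutation p = 0.0714, adjusted p = 0.0786).

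**Figure D4:**
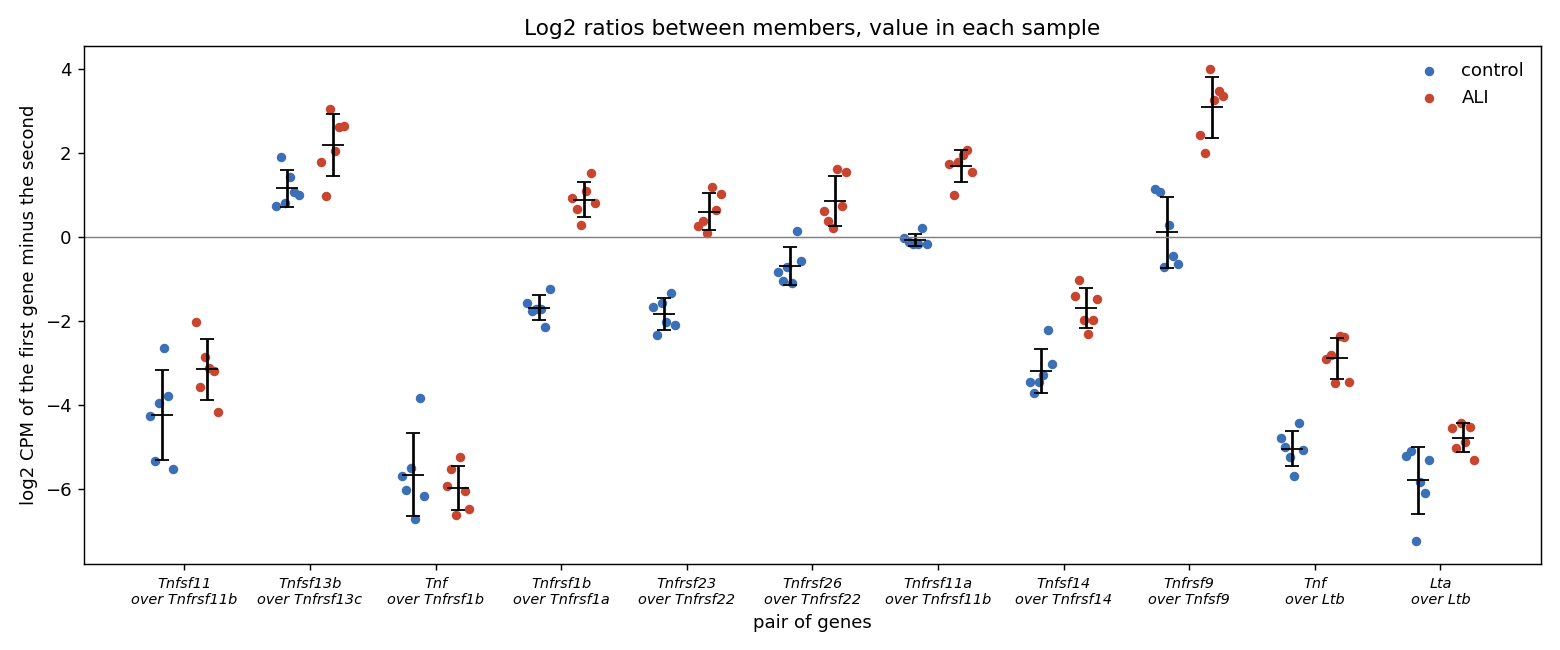
Difference in log2 CPM between pairs of members in each sample, with the group mean and SD in black, for control (blue) and ALI (red). The ratio of Tnfrsf1b to Tnfrsf1a, not corrected for length, lies between -2.14 and -1.22 in controls and between 0.29 and 1.53 in ALI, while that of Tnf to Tnfrsf1b overlaps between groups.

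Tnfsf12, which encodes TWEAK, held 23.2, 26.6 and 32.6 CPM in controls and 16.4, 19.6 and 23.0 CPM in ALI, without overlap, and fell by 0.44 ± 0.11 (edgeR adjusted p = 0.00499). Of its exon bases 48.3% are shared with the readthrough gene Tnfsfm13. Tnfrsf12a, the TWEAK receptor Fn14, was not called, at 28.9 ± 13.8 and 23.0 ± 2.50 CPM (log2 change -0.33 ± 0.23, edgeR adjusted p = 0.292), with control 5 highest of all at 55.3 CPM. Without control 5 the change was -0.05.

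Eda2r (ENSMUSG00000034457, chromosome X, 97333840 to 97377216, minus strand), the receptor of ectodysplasin A2 and a known p53 target, held 1.31, 2.06 and 3.22 CPM in controls and 3.53, 6.43 and 7.03 CPM in ALI. It rose by 1.42 ± 0.23, 2.68-fold (edgeR adjusted p = 0.000223), without overlap. Eda, the gene of its ligand and no member by the rule, fell by 0.98 (edgeR adjusted p = 0.00961). Tnfrsf19 (TROY), a receptor of epithelial progenitors, held 28.4, 55.2 and 57.4 CPM in controls and 32.3, 34.2 and 46.9 CPM in ALI and fell by 0.43 ± 0.16 (edgeR adjusted p = 0.0462). Its lowest control was control 5, and the call was kept without control 5 (-0.55), ALI 1 or ALI 3 and lost without any other sample (edgeR adjusted p up to 0.0940). Ngfr, the low-affinity neurotrophin receptor, was not called, at 0.835 ± 0.388 and 1.42 ± 0.778 CPM (edgeR adjusted p = 0.130), and was called higher without control 5 (1.04, edgeR adjusted p = 0.0347).

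Genes that work with these receptors inside the cell or at its surface were taken from a list of 46, all of them tested. Of these 19 were higher in ALI and 4 lower, beside 18.9% and 17.7% of all genes, with a median log2 change of 0.13. Adam17, the protease that sheds Tnf and both TNF receptors, held 41.1, 67.5 and 72.3 CPM in controls and 138, 189 and 222 CPM in ALI, without overlap, and rose by 1.53 (edgeR adjusted p = 1.56e-06). Nfkbie, an inhibitor of NF-kB, rose by 1.75, and Tnip1, a partner of the brake protein A20, by 1.05 (edgeR adjusted p = 1.75e-06 and 3.20e-05). Tnfaip3, the gene of A20, rose by 1.23 (edgeR adjusted p = 0.000174), while Nfkbia was not called (0.23, edgeR adjusted p = 0.347). Ripk3, the kinase of necroptosis, rose by 1.06 and Ripk1, the kinase recruited by TNFR1, by 0.69 (edgeR adjusted p = 8.81e-06 and 4.91e-05). Birc3, a ubiquitin ligase of the TNF receptor complex, rose by 0.79 and Nfkb2, the subunit of the noncanonical pathway, by 0.88. Jun, a subunit of AP-1, fell by 0.94, from a median of 349.8 to 179 CPM (edgeR adjusted p = 1.24e-05). The other 3 called lower were Rhbdf1, Map2k7 and Rela, with log2 changes of -0.50, -0.39 and -0.28. Of the adaptors, Traf2 and Traf3 rose by 0.43 and 0.59 (edgeR adjusted p = 0.000332 and 0.00131). Tradd, Fadd and Traf6 were not called, with log2 changes of 0.04, 0.13 and 0.01 (edgeR adjusted p = 0.813, 0.407 and 0.954).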

How the data were processed

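Per the labels' protocols, TRIzol RNA of 12 lung samples was made into NEBNext Ultra libraries for an Illumina NovaSeq. One table of raw counts for each gene, with gene lengths, was deposited by the authors. Named in the submitters' processing notes are fastp, HISAT2, featureCounts and the mouse build GRCm38 (mm10); versions, strand setting and treatment of reads matching several genes are not given in the sources used here. Samples were grouped by treatment label and columns matched by title.

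Counts were analysed in R 4.3.3 with edgeR 4.0.16: filterByExpr (minimum count 10), TMM, robust quasi-likelihood F test without covariates, Benjamini-Hochberg adjustment over 16185 genes. SE is the log2 change divided by the root of F. CPM uses the TMM-scaled total count. Log2 ratios use a prior count of 2 and a two-sided exact permutation of 6 against 6; of the 11 ratios, 3 (Tnf to Tnfrsf1b, Tnfsf13b to Tnfrsf13c, Tnfsf11 to Tnfrsf11b) were planned and 8 added once values were known. Adjustment over the 11 ratios does not cover that choice. The steps were tested on simulated data. Counting without molecular identifiers cannot tell duplicates from separate molecules. Coordinates are those of GENCODE M21 by gene ID, since 0 of 42 deposited starts equalled GRCm38. Sampling noise was exceeded in all 30 within-group pairs, with chi-square divided by its degrees of freedom at 6.91 to 239.

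Members, marker and pathway lists were chosen with earlier results of these data known. Every member is accounted for. Per-sample ranges are given for each called member. Levels and changes, whatever the result, are given for Tnf, Tnfrsf1a, Tnfrsf1b, Fas, Fasl, Tnfsf10, Tnfrsf10b, Tnfrsf11b, Tnfsf13b, Tnfrsf13c, Cd40 and Cd40lg. For Tnfsf11 the level is given, and a change only from the fit without the count filter, since its counts were too few for the main test. Of the pathway list, changes are given for up to 8 called genes with the smallest p. Other pathway genes were named after their values were seen. Alternatives were DESeq2 1.42.0, limma-voom (limma 3.58.1) with sample weights, DESeq2 size factors, totals without TMM, no count filter, a filter of 1 CPM in 6 samples, the replicate number as a block, and leaving out each sample or both control 5 and ALI 2.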

Additional observations from a re-analysis of the deposited data

Results flagged for a closer look

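Among the 76 groups of 6 values examined (38 tested members, control and ALI), 7 had a sample set apart from the other 5 by a gap above Dixon's 95% critical share of the whole range, where chance gives about 1 group in 20. Of these 7, 5 were values of control 5, the sample with adipose transcripts. In control 5, Tnf was high at 3.06 CPM (next 1.42), Tnfrsf25 at 6.93 CPM (next 2.84), Tnfrsf18 at 4.25 CPM (next 2.47) and Tnfrsf12a at 55.3 CPM (next 29.5), and Tnfrsf19 was low at 28.4 CPM (next 49.2). Tnfrsf1a was high in control 3 at 226 CPM (next 201), and Tnfsf14 was low in ALI 3 at 2.56 CPM (next 4.19).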

How the results depend on the processing

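Of the 19 called members, 15 kept their call under all 20 alternatives, and none of the 19 turned direction. Fas and Tnfrsf19 lost theirs as described, Tnfrsf19 also with library size alone, without the filter and with the replicate block (edgeR adjusted p = 0.0942, 0.0521 and 0.0613), Cd27 without the filter and with the block (0.0502 and 0.0557), and Tnfsf13b with the block (0.0692). The number of receptors lower in ALI was 1 without the filter and 1 with the replicate block, and 1 to 3 when 1 sample was left out (1 without control 2 or control 4), where 3 were called with all samples. Same-numbered control and ALI samples had deviations that correlated from -0.268 to 0.266, and 1 of 6 controls correlated best with its own number. Pairing by number was thus not seen, although such a check cannot exclude it. With the block 4822 genes were called in place of 5922. Leaving out 1 sample gave 5169 to 7223 genes, 6 to 7 ligands higher and 8 to 11 receptors higher, the highest number of receptors without control 5. Without control 5 and ALI 2, 6825 genes were called and Tnfrsf13c was lower (-0.71, edgeR adjusted p = 0.0333). This gave 4 receptors lower, the most under any alternative, and Tnfrsf25 was called higher there too. Without these samples the 11 ratios kept their direction, and the 8 past the threshold of 0.05 other than Lta to Ltb had adjusted exact p of 0.0125 to 0.0218 (Lta to Ltb 0.0388). The difference in Tnf to Tnfrsf1b ran from -0.53 to 0.048 with 1 sample left out, so its sign was not stable. Limma-voom called Tnfrsf10b (0.35, adjusted p = 0.0140), Tnfrsf25 and Tnfrsf13b. Uncalled members changed sign as follows. Tnfrsf1a had a log2 change of -0.00499 with the filter of 1 CPM and -0.0211 to 0.0405 with 1 sample left out; Cd40lg had -0.26 to 0.14 and was not tested with that filter. With 1 sample left out Ltb ran from -0.0437 to 0.25, Tnfrsf14 from -0.11 to 0.14, Tnfrsf4 from -0.12 to 0.23 and Tnfrsf18 from -0.23 to 0.0617. Limma-voom gave -0.0726 for Tnfrsf14, 0.0133 for Tnfrsf18 and 0.0348 for Tnfrsf12a, the replicate block -0.00791 for Tnfrsf14, and leaving out control 5 and ALI 2 gave 0.0575 for Tnfrsf18. The cause of these shifts was not tested. Counts of a few per sample limit Tnfsf4, Tnfsf11, Tnfsf18 and Tnfrsf17. Control counts were also low in some called members, at 4 to 23 a sample for Tnfrsf9 and 2 to 22 for Tnfrsf8. In Lta and Tnf the control counts were 5 to 15 and 8 to 41.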
